A study of Arabidopsis thaliana with 24 samples.

Results

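Transcripts of 8 ribosome biogenesis genes were followed in shoots and roots of Arabidopsis thaliana through the first day of chilling. The genes were taken by name, in a choice made with earlier results of these data known: AT5G14520 (pescadillo), PRH75, AT3G15460, AT3G22660, AT2G40360, AT1G52930, AT5G15550 and AT3G05060. Each was read through the only probe set that the array's annotation pairs with that gene alone. They are 8 of 22746 probe sets that are not controls, and all 8 were among the 16073 bright enough to be tested. All plants were of the ecotype Col-0 and grew on Murashige and Skoog medium in boxes, at 24 °C, under 16 h of light a day and at 50% humidity. Cold began on day 16, at 3 h of light, when boxes were put on ice inside a cold room at 4 °C. Shoots and roots were collected after 0.5, 1, 3, 6, 12 and 24 h, with 2 arrays for each of the 12 groups. Every group was chilled, so each change with time below is relative to plants that had already spent 0.5 h in the cold. Samples of 3, 6 and 12 h were harvested later in the day than those of 0.5 h, and for them the cold and the hour of the day cannot be told apart. Whether the 2 arrays of a group are separate cultures is not stated, so each p-value reflects how far these samples spread, and that spread may be technical.

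Ribosomes are built in the nucleolus. There RNA polymerase I makes a long precursor of the ribosomal RNAs, and a large set of assembly factors cuts, modifies and folds it together with the ribosomal proteins, then leaves before the finished subunits are used. The pathway is most active in growing tissue such as root tips and young leaves. Pescadillo is a nucleolar protein needed to mature the RNA of the large subunit, and PRH75 is a nucleolar RNA helicase of the DEAD-box family, enzymes that unwind RNA with energy from ATP. The other 6 genes were listed as ribosome assembly genes, and the annotation used here gives them no name beyond the locus, so their separate roles are not described.

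The values are intensities on a linear scale, scaled so that the trimmed mean of every array is 100. Log2 changes and tests were made on log2(intensity + 10), while fold values are ratios of mean intensity without the added 10. Replicate arrays correlated with r from 0.951 to 0.991 over the tested probe sets. RCA, which marks green tissue, read 4635 to 5812 in shoots against 83.0 to 247 in roots. PYK10, which marks roots, read 2750 to 3874 in roots against 407 to 752 in shoots. EXPA7 and EXPA18, expansins of root hairs, were also brighter on all root arrays than on any shoot array. The array's 25S ribosomal RNA control stood at 212 and 246 on the 0.5 h shoot arrays, against 889 to 1862 on the other shoot arrays. Its part in the results was not tested, and values that do not use the 0.5 h arrays are given for the changes in shoots and for the difference in change between the tissues. Whole organs were measured, so fewer cells of a type and less RNA per cell cannot be told apart.

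All 8 genes started out higher in roots than in shoots, against 44.5% of all tested probe sets. At 24 h in the cold PRH75 alone was still called higher in roots, against 37.6%. In shoots the 8 transcripts showed no call up to 6 h. By 12 h 3 of them rose, against 14% of all tested probe sets. By 24 h all 8 rose, against 19.2%, by between 1.85-fold and 3.86-fold in mean intensity. In roots 7 of the 8 did not pass at any time, and PRH75 alone rose, at 24 h. That count is near the background of 15.5%. By a test of the difference itself, the change over the day was smaller in roots than in shoots for 7 of the 8 genes. This held for 16.7% of all tested probe sets.

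**Figure D1:**
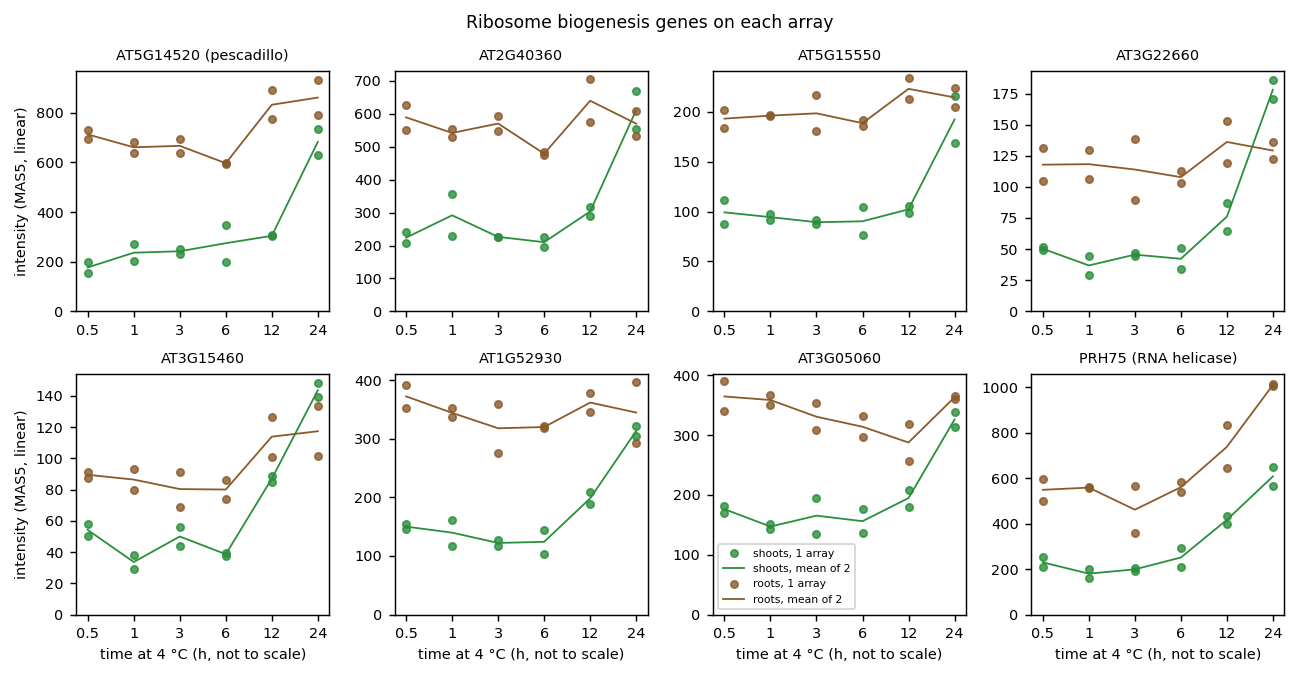
Intensity (linear) of the 8 genes against time at 4 °C (h, categories not to scale), with 1 point for each array and a line through the mean of the 2 arrays in shoots (green) and roots (brown). The 24 h shoot arrays lie above all 10 earlier shoot arrays in every panel, and the root arrays lie above the shoot arrays of the same time at each time up to 12 h.

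Pescadillo, AT3G15460 and PRH75 passed in shoots at 12 h as well as at 24 h. Pescadillo (AT5G14520) read 199 and 155 on the shoot arrays at 0.5 h, 307 and 302 at 12 h, and 631 and 735 at 24 h. At 1, 3 and 6 h its shoot arrays lay between 201 and 349, where the top value is 6 h replicate 2 and its partner read 201. Both 12 h arrays and both 24 h arrays were above both 0.5 h arrays, and its log2 change was 0.76 ± 0.20 (SE; adjusted p = 0.0058) at 12 h and 1.90 ± 0.20 (adjusted p = 4.9e-07) at 24 h. In roots pescadillo read 733 and 693 at 0.5 h against 931 and 792 at 24 h (0.27 ± 0.20, adjusted p = 0.29). Its lowest root arrays, 595 and 599.6 at 6 h, were above every shoot array of the first 12 h.

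AT3G15460 read 58.3 and 50.0 in shoots at 0.5 h, 88.9 and 85.0 at 12 h, and 148 and 139 at 24 h. Its pairs did not overlap between these times, and it rose by 0.60 ± 0.17 (adjusted p = 0.0084) at 12 h and by 1.26 ± 0.17 (adjusted p = 6.8e-06) at 24 h. Both 24 h shoot arrays were above all 12 root arrays, which ran from 69.1 to 133. Its root change at 24 h was 0.35 ± 0.17 (adjusted p = 0.099), from 87.6 and 91.4 to 133 and 101, and it passed without roots 24 h replicate 2.

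PRH75, the helicase, read 251 and 208 in shoots at 0.5 h, 433 and 400.02 at 12 h, and 565 and 651 at 24 h. It was up by 0.84 ± 0.20 (adjusted p = 0.0027) at 12 h and by 1.37 ± 0.20 (adjusted p = 1.8e-05) at 24 h. PRH75 also rose in roots, from 597 and 501 at 0.5 h through 644 and 832 at 12 h to 1004 and 1017 at 24 h. Both 24 h root arrays were above all 10 earlier root arrays, as for 11% of the tested probe sets, and the change was 0.87 ± 0.20 (adjusted p = 0.0017). The lowest root array was 3 h replicate 2 at 359, against 564 for its partner.

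The other 5 genes passed in shoots at 24 h alone. AT3G22660 read 51.6 and 49.0 on the shoot arrays at 0.5 h, 64.8 and 87.3 at 12 h, and 171 and 186 at 24 h. The 12 h pair lay above the 0.5 h pair without a call (0.50 ± 0.21, adjusted p = 0.072), and at 24 h it rose by 1.64 ± 0.21 (adjusted p = 5.5e-06), a 3.54-fold rise in mean intensity. Its 24 h shoot arrays were above all 12 root arrays, which ran from 89.8 to 153 with a median of 121 and showed no call at 24 h (0.13 ± 0.21, adjusted p = 0.65). AT2G40360 read 241 and 207 in shoots at 0.5 h, 290.2 and 317 at 12 h, and 553 and 669.6 at 24 h. One early array stood apart from its partner, 1 h replicate 1 at 356 against 227. The change of AT2G40360 in shoots was 0.42 ± 0.17 (adjusted p = 0.063) at 12 h, and it went up by 1.41 ± 0.17 (adjusted p = 3.2e-06) at 24 h. In roots its pairs at 0.5 h (626 and 552) and 24 h (608 and 532) overlapped (−0.05 ± 0.17, adjusted p = 0.85).

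AT1G52930 read 146 and 154 on the shoot arrays at 0.5 h, 188 and 209 at 12 h, and 321 and 305 at 24 h. Its change was 0.38 ± 0.18 (adjusted p = 0.1) at 12 h, and at 24 h it was higher by 1.01 ± 0.18 (adjusted p = 1.3e-04). In roots it read 391 and 353 at 0.5 h against 396 and 293 at 24 h, pairs that overlap (−0.12 ± 0.18, adjusted p = 0.61). AT5G15550 and AT3G05060 had 12 h pairs in shoots that overlapped the 0.5 h pairs. AT5G15550 read 111 and 87.2 at 0.5 h, 106 and 98.6 at 12 h, and 169 and 216 at 24 h. Its change was 0.05 ± 0.16 (adjusted p = 0.85) at 12 h, against a rise of 0.89 ± 0.16 (adjusted p = 1.2e-04) at 24 h. AT3G05060 read 182 and 171 at 0.5 h, 209 and 181 at 12 h, and 339 and 314 at 24 h. Its change was 0.13 ± 0.17 (adjusted p = 0.56) at 12 h, against a rise of 0.85 ± 0.17 (adjusted p = 3.4e-04) at 24 h.

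In roots neither of these genes had a call. AT5G15550 read 184 and 202 in roots at 0.5 h against 224 and 205 at 24 h (0.14 ± 0.16, adjusted p = 0.47). AT3G05060 read 389.9 and 339.6 in roots at 0.5 h, 319 and 256 at 12 h, its lowest pair, and 361 and 366 at 24 h (−0.002 ± 0.17, adjusted p = 0.99).

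Set side by side, the first rise in shoots came at 12 h for pescadillo, AT3G15460 and PRH75 and at 24 h for the other 5, where a first rise is the first time higher than at 0.5 h with an adjusted p under 0.05. Of all tested probe sets 14% were called higher at 12 h and 26.3% lower, where 3 of the 8 genes rose. At 24 h the shares were 19.2% higher and 34.3% lower, where all 8 rose. With arrays centred on their medians these shares were 18.3% and 17% at 12 h and 27.8% and 21.7% at 24 h. The median log2 change of the 8 genes was 0.46 at 12 h and 1.32 at 24 h, or 0.63 and 1.52 above the median of all tested probe sets. At 1, 3 and 6 h limma called none of the 8 in either direction, and 1, 1 and 2 of them had an unadjusted p under 0.05. The backgrounds there were 1.82%, 5.29% and 9.74% higher and 0.995%, 2.41% and 11.9% lower. These times are set by which changes passed, and whether the genes' 12 h changes differ from each other was not tested. The membership at 12 h moved with the setting: 4 rose after quantile normalization, with AT3G22660 added, and 6 rose with median centring, with AT2G40360, AT3G22660 and AT1G52930 added. With 1 h as the baseline 4 rose, namely AT3G22660, AT3G15460, AT1G52930 and PRH75, and with 0.5 h and 1 h pooled 5 rose, the same 4 and pescadillo. Shares of all tested probe sets were not taken for these baselines or for quantile normalization, so these counts have no background. At 6 h pescadillo stood at 0.57 ± 0.20 (adjusted p = 0.053), just over the threshold. It passed at 6 h with a pseudocount of 50, a filter at 100 or median centring. Against 1 h its first rise came at 24 h. Without 0.5 h replicate 2, PRH75 was the 1 gene called at 12 h, and without 12 h replicate 1 AT3G15460 lost its call. Without 1 h replicate 2, AT2G40360 was higher and AT3G15460 lower at 1 h, and without 6 h replicate 1, pescadillo was higher at 6 h. At 24 h all 8 rose in each of these settings, with 1 h as the baseline too (median 1.31), and with any 1 array left out.

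The comparison of 24 h with 12 h in shoots uses none of the 0.5 h arrays. It sets different hours of the day against each other, so time in the cold and hour cannot be told apart in it. From 12 to 24 h 7 of the 8 genes rose, against 10.4% of all tested probe sets, with log2 changes from 0.64 ± 0.18 for AT1G52930 (adjusted p = 0.017) to 1.14 ± 0.21 for AT3G22660 (adjusted p = 9.4e-04). PRH75 had a change of 0.53 ± 0.20 (adjusted p = 0.065) over these hours, and it passed, making 8 of 8, with a pseudocount of 50 and with median centring. The share of the 24 h log2 change already present at 12 h was 61.2% for PRH75, 47.5% for AT3G15460, 40.1% for pescadillo, 37.4% for AT1G52930, 30.6% for AT3G22660, 30.2% for AT2G40360, 15.8% for AT3G05060 and 5.34% for AT5G15550. These shares carry the error of both changes and rest on the 0.5 h arrays, and their order was not tested. All 8 genes had both 24 h arrays above all 10 earlier shoot arrays, which held for 14% of the tested probe sets. From 12 to 24 h 5 or 6 of the 8 rose without 1 array: AT1G52930 lost its call without 12 h replicate 1 or either 24 h array, AT3G15460 without 12 h replicate 2 or 24 h replicate 1, and AT3G05060 without 12 h replicate 2. The 25S ribosomal RNA control read 961 to 1373 at 12 h and 889 to 1420 at 24 h, ranges that overlap.

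Along the order of the 6 times in shoots, the top step, from 12 to 24 h, separated the pairs of arrays for all 8 genes. That separation follows from both 24 h arrays lying above all earlier ones, as for 14% of the tested probe sets. The 12 h group was the next highest for all 8, and how often this held over all tested probe sets was not counted. Below it the order differed from gene to gene, with 1 h lowest for AT3G22660, AT3G15460, AT3G05060 and PRH75, 6 h lowest for AT2G40360, 3 h lowest for AT5G15550 and AT1G52930, and 0.5 h lowest for pescadillo. Most neighbours among these 4 early times overlapped. In roots between 0 and 2 of the 5 steps in the order separated the pairs, and the highest group was 24 h for pescadillo, AT3G15460 and PRH75, 12 h for AT2G40360, AT5G15550 and AT3G22660, and 0.5 h for AT1G52930 and AT3G05060.

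In roots limma called 0 of the 8 genes in either direction at 1, 3, 6 and 12 h, and 0 had an unadjusted p under 0.05. The backgrounds were 0.0187%, 2.13%, 5.23% and 9.93% of all tested probe sets higher and 0%, 0.317%, 2.38% and 17.8% lower. At 24 h 1 of 8 rose, against 15.5% of all tested probe sets higher and 32.5% lower, so the count is near the background. With median centring PRH75 and AT3G15460 rose at 12 h, and pescadillo, AT5G15550, AT3G15460 and PRH75 rose at 24 h (background 25.1% higher, 16.1% lower). The median change of the 8 genes at 24 h in roots was 0.14 as deposited, which is 0.35 above that of all tested probe sets. From 12 to 24 h in roots limma called none of the 8 and 1 had an unadjusted p under 0.05, while 5.01% of all tested probe sets were higher and 6.61% lower.

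**Figure D2:**
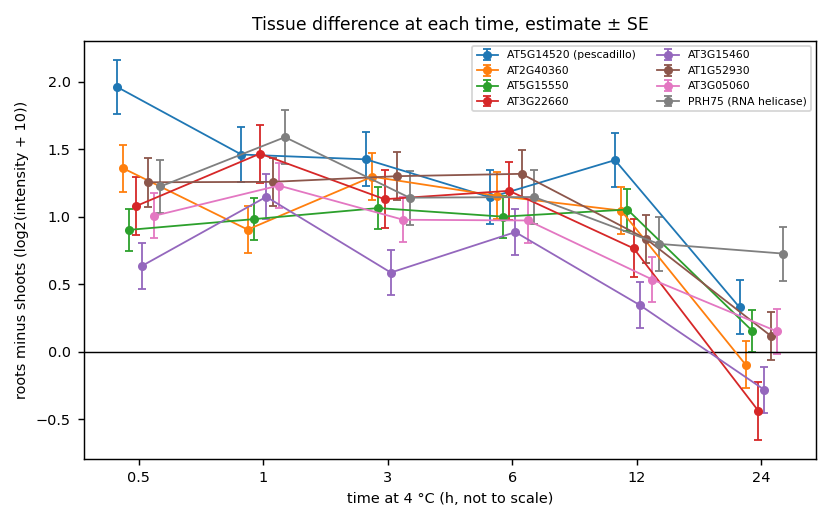
Roots minus shoots on the log2(intensity + 10) scale, with its SE, for the 8 genes against time at 4 °C (h, categories not to scale). The 8 differences lie between 0.64 and 1.96 at 0.5 h and between −0.43 and 0.73 at 24 h.

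At 0.5 h all 8 genes were higher in roots, against 44.5% of all tested probe sets higher in roots and 24.3% lower. With median centring these shares were 33.7% and 30.1%. Over the mean of all times all 8 were again higher in roots, by 0.55 to 1.29, against 57.6% of all tested probe sets. The log2 difference ran from 0.64 ± 0.17 for AT3G15460 (adjusted p = 0.0028) to 1.96 ± 0.20 for pescadillo (adjusted p = 1.3e-07), which is 1.65-fold and 4.03-fold in mean intensity. At 0.5 h both root arrays lay above both shoot arrays for all 8 genes, which held for 55.8% of the tested probe sets. The median difference of the 8 genes was 1.15 at 0.5 h, 1.24 at 1 h, 1.14 at 3 h, 1.14 at 6 h, 0.82 at 12 h and 0.14 at 24 h. Over all tested probe sets it stayed near 0.3 up to 12 h, between 0.29 and 0.32, and was 0.18 at 24 h. Of the 10 shoot arrays of the first 12 h, all 10 were below the lowest root array for 6 of the genes, and 8 were for AT3G15460 and for PRH75. The share of all tested probe sets with such a separation was not taken, so this describes the 8 genes only.

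At 24 h 7 of the 8 genes had no call between the tissues, which does not show that their levels were equal. PRH75 was higher in roots by 0.73 ± 0.20 (adjusted p = 0.0042), at 1004 and 1017 against 565 and 651, while 37.6% of all tested probe sets were higher in roots and 24.2% lower. Both root arrays lay above both shoot arrays for 3 of the 8 genes, against 49.3% of the tested probe sets. The largest differences the other way were −0.43 ± 0.21 for AT3G22660 (adjusted p = 0.088) and −0.28 ± 0.17 for AT3G15460 (adjusted p = 0.16). With median centring both of these were called lower in roots (background 29.1% higher, 30.5% lower), with a pseudocount of 50 AT3G22660 was, and after quantile normalization pescadillo joined PRH75 as higher in roots. Both 24 h shoot arrays lay within the range of the 12 root arrays for pescadillo, AT2G40360, AT1G52930, AT3G05060 and PRH75, and 1 of the 2 did for AT5G15550. How many of all tested probe sets lay so was not counted.

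The change from 0.5 h to 24 h was smaller in roots than in shoots for 7 of the 8 genes, against 16.7% of all tested probe sets (15.5% had a larger change in roots). The difference in log2 change, roots minus shoots, was −1.63 ± 0.28 for pescadillo (adjusted p = 3e-04), −1.51 ± 0.30 for AT3G22660 (adjusted p = 0.001) and −1.45 ± 0.25 for AT2G40360 (adjusted p = 2.5e-04). It was −1.14 ± 0.25 for AT1G52930, −0.92 ± 0.24 for AT3G15460, −0.85 ± 0.23 for AT3G05060 and −0.74 ± 0.22 for AT5G15550, with adjusted p-values of 0.0024, 0.0068, 0.0099 and 0.015. For PRH75, which rose in both tissues, it was −0.50 ± 0.28 (adjusted p = 0.19). From 1 h to 24 h, which leaves the 0.5 h arrays aside and was added after the data were seen, the change was smaller in roots for all 8 genes, against 16.6% of all tested probe sets (13.8% had a larger change in roots). These differences ran from −1.90 ± 0.30 for AT3G22660 (adjusted p = 1.5e-04) to −0.82 ± 0.22 for AT5G15550 (adjusted p = 0.0087), and PRH75 stood at −0.86 ± 0.28 (adjusted p = 0.028). The call for AT5G15550 was lost without shoots 0.5 h replicate 2 (adjusted p = 0.082), shoots 24 h replicate 2 (0.081), roots 0.5 h replicate 2 (0.055) or roots 24 h replicate 2 (0.052), while the other 6 kept theirs without any 1 array. The 7 genes thus passed 3 tests, higher in roots at 0.5 h, risen in shoots at 24 h and a smaller change in roots. So did 7.5% of all tested probe sets. All 3 tests use the same 0.5 h shoot arrays, and low values there would favour each, so they are not separate evidence.

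**Figure D3:**
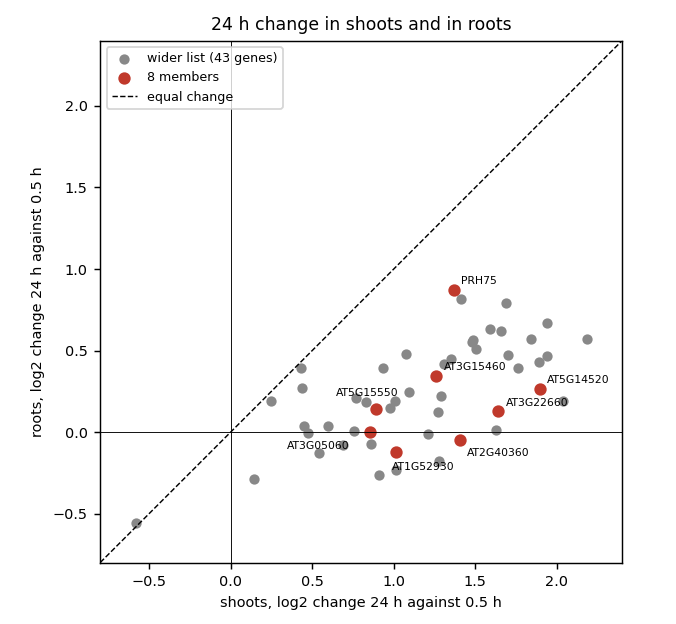
Log2 change from 0.5 h to 24 h in roots against that in shoots for the 8 genes (red) and 43 further ribosome biogenesis genes (grey), with the line of equal change dashed. All 8 genes lie below the line, and PRH75 is the highest of them on the root axis at 0.87.

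The wider pathway was followed with 82 further loci listed from general knowledge as ribosome biogenesis genes, of which 45 had a probe set of their own in the annotation and 43 were bright enough to be tested. In shoots 37 of the 43 were higher at 24 h, against 19.2% of all tested probe sets, 1 was lower and 5 did not pass, with a median log2 change of 1.21, or 1.41 above all tested probe sets. At 12 h 20 of the 43 were higher, against 14%, and none lower. Of these 19 had their first rise there, and 17 more had theirs at 24 h. In roots at 24 h 15 were higher and 1 lower, against 15.5% and 32.5% of all tested probe sets, with a median of 0.22. The change over the day was smaller in roots for 29 of the 43, against 16.7%, and larger for none. From 1 h to 24 h it was smaller for 34, against 16.6% of all tested probe sets. Against 1 h the counts higher in shoots were 20 at 12 h and 41 at 24 h, for which no share of all tested probe sets was taken. In roots at 24 h the count fell without roots 24 h replicate 1 and without roots 0.5 h replicate 2. With median centring it was 25, against 25.1% of all tested probe sets higher.

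The highest of the 43 in shoots at 24 h were AT3G21540, from 24.4 ± 5.68 (SD, n = 2) to 146 ± 1.50 (log2 change 2.19 ± 0.16 SE), and AT4G15770, from 273 ± 35.0 to 1149.9 ± 152 (2.04 ± 0.31). As AT3G21540 started under an intensity of 30, its change is understated on this scale. AT3G23620 rose by 1.94 ± 0.15, AT3G06530 by 1.94 ± 0.15 and AT3G13940 by 1.89 ± 0.16. In roots the changes of these 5 genes, in the order named, were 0.57 ± 0.16, 0.19 ± 0.31, 0.67 ± 0.15, 0.46 ± 0.15 and 0.43 ± 0.16, of which all but that of AT4G15770 passed. At the other end AT5G08420 fell from 214 ± 8.80 to 139.9 ± 4.38 in shoots (−0.58 ± 0.16, adjusted p = 0.006) and from 204 ± 11.5 to 135 ± 7.50 in roots (−0.56 ± 0.16, adjusted p = 0.0091). The next lowest in shoots, AT2G46230 (0.14 ± 0.13) and AT2G21440 (0.25 ± 0.17), did not pass. PCN, singled out after its values were seen, was the 1 gene of the 43 that was higher at 3 h in shoots (0.76 ± 0.15, adjusted p = 0.0035), and it stood at 1.28 ± 0.15 at 24 h with no call in roots (−0.18 ± 0.15, adjusted p = 0.35).

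**Figure D4:**
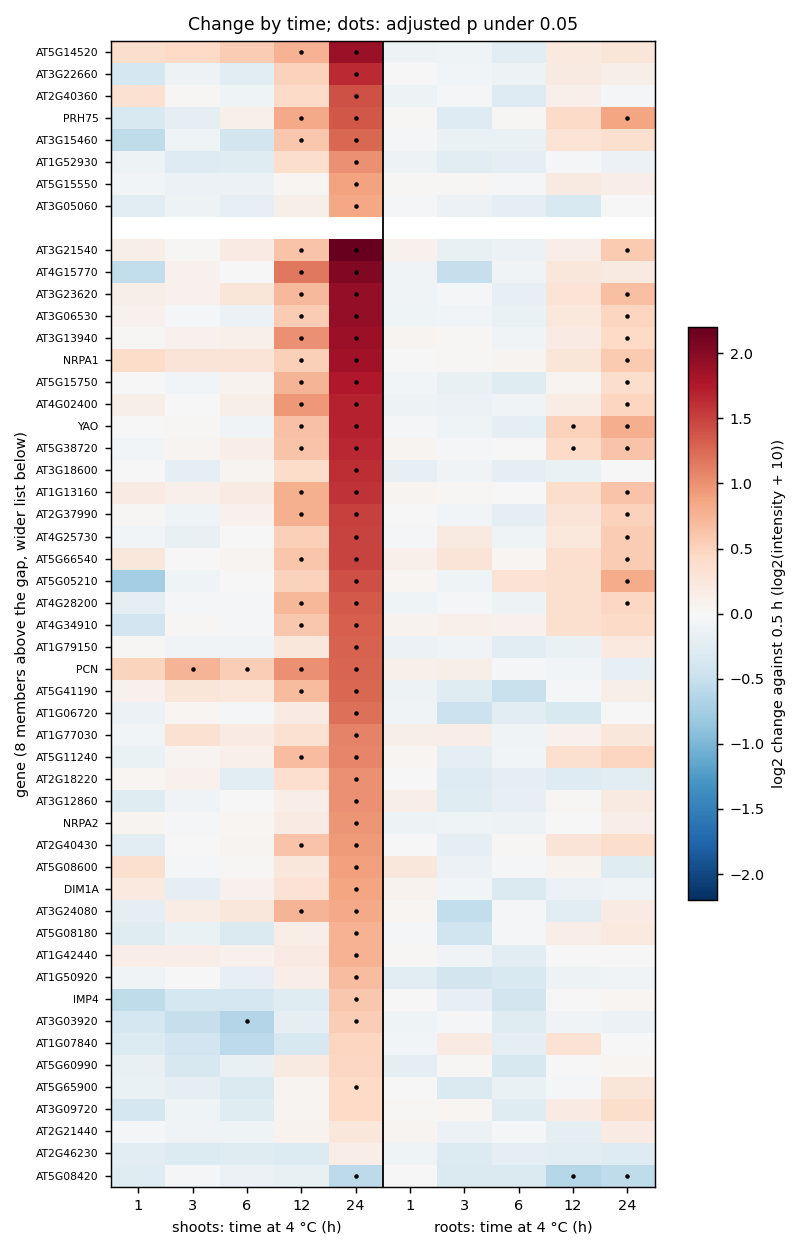
Log2 change against 0.5 h (colour) of the 8 genes, above the gap, and the 43 further ribosome biogenesis genes, ordered by the 24 h change in shoots, at 5 times in shoots (left) and roots (right), with a dot where the adjusted p is under 0.05. Calls in shoots gather at 12 and 24 h, with 37 of the 43 further genes higher at 24 h, and 15 of the 43 are higher in roots at 24 h.

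Between the tissues, 34 of the 43 genes of the wider list were higher in roots at 0.5 h and none lower, against 44.5% and 24.3% of all tested probe sets. At 24 h 1 was higher in roots and 8 were lower, against 37.6% and 24.2% of all tested probe sets. The median difference, roots minus shoots, went from 0.84 at 0.5 h to −0.10 at 24 h. The 1 gene still higher in roots at 24 h was AT3G03920 (0.40 ± 0.15, adjusted p = 0.031), named after its values were seen.

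The 8 profiles were alike across the 12 groups: the correlation of each gene's group means with the mean of the other 7 ran from 0.89 for AT3G15460 to 0.98 for AT1G52930. Over the 6 shoot groups it ran from 0.91 for pescadillo to 0.99 for AT3G22660. Over the 6 root groups it ran from −0.06 for AT3G05060 to 0.97 for AT3G15460, where the changes were small. The genes share their arrays and these values are a description. Outside the 8 genes the most similar patterns to their mean, by Pearson's r over the 12 group means, were those of AT5G59240 (0.996), AT1G25260 (0.989), AT5G55610 (0.986), Hop1 (0.985), AT5G62440 (0.985) and AT5G20890 (0.985). AT5G59240 went in shoots from 27.4 ± 1.35 (SD, n = 2) to 89.0 ± 2.82 between 0.5 and 24 h, and in roots from 76.8 ± 8.43 to 108 ± 33.9. Hop1, a co-chaperone that links heat shock proteins, went from 79.8 ± 8.30 to 175 ± 0.359 in shoots and from 190.1 ± 9.75 to 189 ± 11.6 in roots. AT5G20890 went from 451 ± 54.5 to 1043 ± 18.2 in shoots and from 919 ± 46.8 to 1124 ± 167 in roots. These 3 showed the same layout, a low early level in shoots, a high level in roots and tissues close together at 24 h, which follows from the rule that named them. Of the 6 genes, AT5G62440 was also called higher in roots at 24 h than at 0.5 h (0.48 ± 0.15 SE, adjusted p = 0.016). None of the 6 was on the wider list.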

How the data were processed

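Total RNA from 24 samples in 12 groups of 2 was read on ATH1-type arrays of 22810 probe sets. The deposited values are intensities on a linear scale, which the authors made with MAS5, as the submitters' processing notes name it. The sources used here give no version, settings or detection calls for it. The mean of each array's values, trimmed by 2% at each end, was 100, so arrays had been scaled to 1 target, which can move the share called higher where intensity spreads differ.

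A pseudocount of 10 was added and log2 taken, which understates changes of dim genes. With 64 control probe sets set aside, 16073 probe sets that reached 30 on 2 or more arrays were fitted with limma 3.58.1 in R 4.3.3, as 12 group means over 24 arrays (12 residual and 4.9 prior degrees of freedom). Tests were 2-sided. Benjamini-Hochberg adjustment ran over all 16073 within each of 16 comparisons, and an adjusted p under 0.05 was called. The fit was tested on simulated data. Within a tissue, the comparisons against 0.5 h use the same 0.5 h arrays. Genes were named through the platform annotation, matched to RefSeq locus tags, and 13513 probe sets have 1 gene. Named were the 8 genes, the 5 highest and 3 lowest of the wider list at 24 h in shoots, and the 6 most similar profiles, and PCN and AT3G03920 were added after their values were seen. A rule for ribosomal protein genes by symbol found 0, so these are not analysed here as a group. The 8 genes and the lists were chosen with earlier results of these data known. Precision is limited by the 2 arrays per group. Alternatives were other pseudocounts, filters, scalings and baselines, a replicate block, fits within 1 tissue and leaving out each array.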

Additional observations from a re-analysis of the deposited data

Results flagged for a closer look

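The change from 0.5 h to 24 h differed between the tissues for 7 of the 8 genes, by the interaction term of the limma fit. Roots minus shoots on the log2 scale, it was −1.63 for AT5G14520, −1.51 for AT3G22660, −1.45 for AT2G40360, −1.14 for AT1G52930, −0.92 for AT3G15460, −0.85 for AT3G05060 and −0.74 for AT5G15550, with adjusted p-values from 2.5e-04 to 0.015. Of all tested probe sets 16.7% had a smaller change in roots by this term and 15.5% a larger one. In shoots all 8 genes were higher at 24 h on both arrays than on any earlier array, against 14% of the tested probe sets. In roots that held for PRH75 alone, which is near the background of 11%. With 2 arrays per group no single array could be tested as standing apart.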

How the results depend on the processing

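All 8 genes were higher in shoots at 24 h than at 0.5 h, and higher in roots than in shoots at 0.5 h and over all times, under every alternative run and without any 1 array. With the replicate number as a block the counts were 3 at 12 h and 8 at 24 h in shoots, 1 at 24 h in roots and 7 for the tissue difference in change, and the block changed no member's call at these comparisons. Of 66 pairs of groups 9 had deviations that correlated above 0.1 (r from −0.451 to 0.33). For shoots and roots of the same time r ran from −0.0763 to 0.0606. These values cannot show whether samples with the same replicate number came from the same boxes.

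Counts that moved by over 1.5 times, or from 0, were these; smaller moves stand beside the results. In shoots at 6 h, 1 gene, pescadillo, was higher with a pseudocount of 50, with a filter at 100 and with median centring. The count also moved with 1 array left out, as it did at 1 h. In shoots at 12 h 6 were higher with median centring and 5 with 0.5 h and 1 h pooled, against 3, and 1 to 3 with 1 array left out. In roots, 2 were higher at 12 h with median centring, and at 24 h 4 with median centring, 2 after quantile normalization, 2 with the pooled baseline and 1 to 2 with 1 array left out. At 24 h 2 were higher in roots than in shoots after quantile normalization. Lower in roots at 24 h were 2 with median centring and 1 with a pseudocount of 50, against 0. Changes in roots at 24 h that had no call took the other sign: AT2G40360 was at 0.24 with median centring, 0.069 with 1 h and 0.011 with pooled times as baseline, and −0.14 to 0.047 with 1 array left out. AT3G05060 was at 0.29, 0.018 and 0.0079 in these settings and −0.10 to 0.095 with 1 array left out. AT1G52930 was at 0.17 with median centring and −0.33 to 0.089 with 1 array left out, and AT3G22660 at −0.023 to 0.28 with 1 array left out. The cause was not tested. Shares of all tested probe sets for the counts listed here were taken with median centring alone, and not for every time. A group left with 1 array was assumed to vary like the others.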
